A study of Mus musculus with 6 samples.

Results

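The CA2 and CA3 pyramidal cell genes are 9 of the 24935 genes in the mouse hippocampal expression table, taken by name as genes known to mark these neurons. The CA3 genes were Nnat, Cpne7 and Bok (3 genes) and the CA2 genes were Rgs14, Amigo2, Pcp4, Map3k15, Necab2 and Cacng5 (6 genes). All 9 were present and all 9 passed the filter on low values. The RNA came from the left hippocampus of C57BL/6 mice at P14 (P for postnatal day). The air group (n = 3 mice) was kept in room air, and the hyperoxia group (n = 3 mice) was kept in a normobaric chamber with 85% oxygen from P2 to P14, each together with its dams. No transgene or deletion was described for either group. The columns of the table carry a number from 1 to 3 within each group that is not tied to an animal, so the numbers only name libraries, and every direction below follows the group named in the column.

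The pyramidal cell layer of the hippocampus is divided into CA1, CA2 and CA3. CA3 cells receive the mossy fibers of the dentate granule cells, connect to each other and drive CA1, whereas the small CA2 field receives entorhinal input, resists the usual induction of synaptic potentiation and is needed for social memory. Each field is recognised by the genes its cells express, but most of these genes are also used by other neurons, among them Nnat in many immature neurons, Pcp4 in cerebellar Purkinje cells and thalamus, and Necab2 in striatum and in some interneurons.

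Rgs14, Cpne7 and Cacng5 differed between air- and hyperoxia-exposed mice. Rgs14, the scaffold that limits plasticity in CA2 cells, fell to 55.2% of its air mean, and this was the call that held under every alternative analysis tried. Cpne7, a CA3 gene, fell to 62.4% of its air mean, and Cacng5, a CA2 gene for a subunit that accompanies AMPA receptors, rose to 124% of its air mean. The other 6 genes did not pass the test. Thus 3 of 9 members were called (limma, adjusted p under 0.05), beside 30.5% of all 17778 genes tested, with 1 called higher beside 14.9% of all genes and 2 called lower beside 15.6% of all genes. The same 3 members were those whose groups did not overlap, a pattern found in 46.1% of all genes tested (hyperoxia higher in 22.3% and lower in 23.8%). The median log2 fold change was −0.023 over the members, −0.47 over the CA3 genes and 0.033 over the CA2 genes, with −0.0072 over all genes tested. In bulk tissue, fewer cells of a type and less RNA per cell cannot be told apart.

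**Figure D1:**
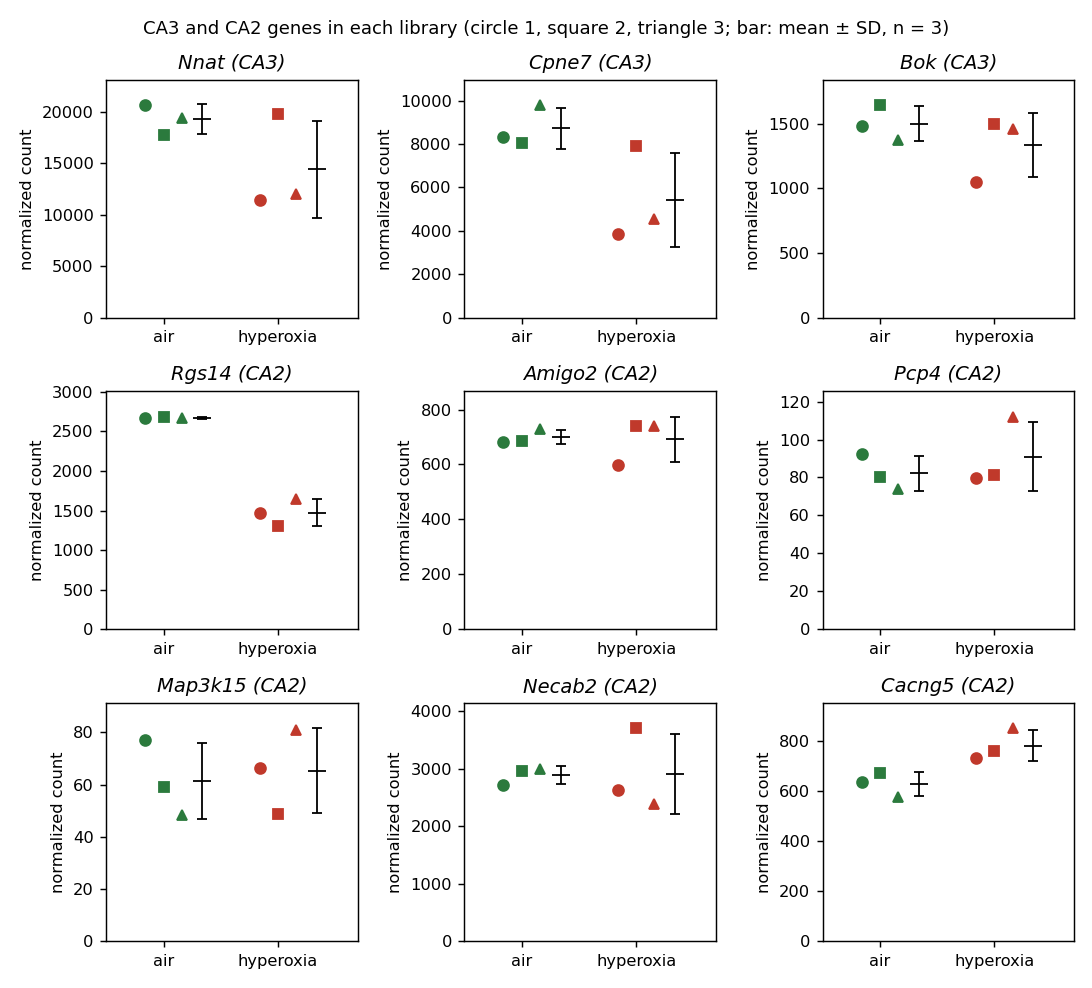
Normalized read count (reads divided by the authors' size factor, linear axis from 0) of each CA3 and CA2 gene in the 3 air and 3 hyperoxia libraries, with the mean and SD of each group as a bar beside the points. The 3 hyperoxia values of Rgs14 (1307 to 1651) lie below its 3 air values (2663 to 2684), while hyperoxia library 2 lies near the air libraries for Nnat and Cpne7.

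Reads on genes ranged from 30384052 to 38746972 per library. None of the 8 CA1 markers or the 8 dentate markers was at 0 in any library. Hyperoxia library 2 stood apart from the other hyperoxia libraries, with a score of 38.7 on the second principal component (19.5% of the variance) beside −5.09 and −22.6. The median absolute log2 difference between it and hyperoxia library 1 was 0.44 over the members and 0.21 over all genes, and between it and hyperoxia library 3 it was 0.45 and 0.25, whereas pairs of air libraries differed by 0.13 to 0.14 over the members and by 0.11 to 0.12 over all genes. It was the highest of the 3 hyperoxia libraries for 5 of 9 members, all 3 CA3 genes included, and for 40.2% of all genes tested. Without it, 5 members were called (1 higher, 4 lower) beside 43.6% of all genes (21.6% higher, 22% lower), with a median log2 fold change of −0.20 over the members. Leaving out any other library left 1 member called, which was Rgs14, beside 17.1% of all genes without air library 1, 17.4% without air library 2, 20.6% without air library 3, 19.0% without hyperoxia library 1 and 28.0% without hyperoxia library 3.

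Markers of some neighbouring regions and of oligodendrocytes differed between the groups as well. Over all genes tested, 14.9% were called higher and 15.6% lower. Of 12 tested thalamic markers, 6 were called higher and 0 lower, and their summed normalized count was 6654 to 7040 in air and 9771, 12031 and 9879 in hyperoxia libraries 1, 2 and 3. Thalamic Gbx2 was below the filter. The 8 neocortical and subicular markers had 4 called higher and 1 lower (summed 7556 to 8670 in air and 9209 to 12947 in hyperoxia), and the 8 striatal markers had 4 higher and 1 lower (3487 to 3904 and 4049 to 5224). The 6 medial habenula markers had 1 called higher and 1 lower (1810 to 1883.5 and 1974 to 2650). Of the 8 dentate markers, 4 were called lower (21236 to 21471 and 13855 to 20661). The 8 CA1 markers had 1 called higher and 2 lower (25457 to 25881 and 21359 to 26155), and no marker of these lists was at 0 in every library. Of 6 oligodendrocyte markers, 5 were called lower (211426 to 321844 and 144727 to 177382), and the summed choroid plexus markers were 572 to 1463 in air and 777, 522 and 8269 in hyperoxia libraries 1, 2 and 3. The 8 interneuron markers had 1 called higher and 1 lower, and the 6 astrocyte markers had 2 higher and 1 lower. The 6 microglia markers had 1 higher and 0 lower, and the 5 endothelial markers had 2 higher and 1 lower. How far the amount of neighbouring tissue entered the values below was not tested.

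Nnat (ENSMUSG00000067786.16) encodes neuronatin, a small membrane protein of the endoplasmic reticulum linked to calcium handling, and is imprinted, with the paternal copy expressed. It lies on chromosome 2 at 157560078 to 157562522 (GRCm38, plus strand), inside an intron of Blcap on the opposite strand, with no exon bases in common. The normalized counts of Nnat were 20609, 17745 and 19388 in air and 11384.5, 19799 and 11956 in hyperoxia libraries 1, 2 and 3. Hyperoxia libraries 1 and 3 were below all air libraries and hyperoxia library 2 was within the air range, so the groups overlapped. The means were 19247 ± 1437 in air and 14380 ± 4702 in hyperoxia (SD, n = 3 each). The log2 fold change of −0.47 (SE 0.18, 95% interval −0.87 to −0.06) did not pass the test (limma, adjusted p = 0.0797). Without hyperoxia library 2 it was −0.72 (limma, adjusted p = 5.85e-05), the only 1 of 16 alternatives in which Nnat was called. Blcap, its neighbour on the other strand, was called higher (log2 fold change 0.33, limma, adjusted p = 0.00959), with 2236 to 2359 normalized counts in air and 2720 to 3120 in hyperoxia. Blcap did not pass when air library 1 was left out (0.31, limma, adjusted p = 0.0515).

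Cpne7 (ENSMUSG00000034796.14, chromosome 8, 123117374 to 123135182, plus strand) encodes copine 7, a protein that binds membrane phospholipids in the presence of calcium. Its normalized counts were 8317, 8038 and 9783 in air and 3870.0, 7897 and 4544 in hyperoxia libraries 1, 2 and 3. All hyperoxia values lay under the lowest air value, but hyperoxia library 2 was close to the lowest air library and far from the other hyperoxia libraries. The means were 8712 ± 937 in air and 5437 ± 2157 in hyperoxia (SD, n = 3 each), a log2 fold change of −0.75 (SE 0.22, 95% interval −1.23 to −0.26; limma, adjusted p = 0.0288). The call was met in 9 of 16 alternatives. The adjusted p was 0.0826 without air library 1, 0.0676 without air library 2, 0.0991 without air library 3, 0.102 without hyperoxia library 1 and 0.0584 without hyperoxia library 3 (limma). Without hyperoxia library 2 the log2 fold change was −1.05 (limma, adjusted p = 3.31e-05). The call was also lost with DESeq2 (−0.67, adjusted p = 0.124) and in limma without the mean-variance trend (adjusted p = 0.0938).

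Bok (ENSMUSG00000026278.14, chromosome 1, 93685660 to 93695764, plus strand) encodes a pore-forming protein of the BCL-2 family that promotes cell death. It had 1482, 1643 and 1374 normalized counts in air and 1047, 1498 and 1458 in hyperoxia. Only hyperoxia library 1 lay below the air range. The log2 fold change was −0.18 (SE 0.13, 95% interval −0.49 to 0.12; limma, adjusted p = 0.331), and Bok was called in 0 of 16 alternatives.

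Rgs14 (ENSMUSG00000052087.13, chromosome 13, 55369732 to 55384687, plus strand) encodes a regulator of G protein signalling that also binds Ras-family proteins and restrains synaptic potentiation in CA2 neurons. It had 2672, 2684 and 2663 normalized counts in air and 1466, 1307 and 1651 in hyperoxia. The air libraries were almost level (coefficient of variation 0.401%), and all hyperoxia libraries were well below them. With 2594 to 2837 reads per air library, so small a spread is below counting noise and does not measure how mice differ. The means were 2673 ± 10.7 in air and 1474.5 ± 172 in hyperoxia (SD, n = 3 each). The log2 fold change of −0.86 (SE 0.09, 95% interval −1.07 to −0.66) passed the test (limma, adjusted p = 0.000451). It was called lower in all 16 alternatives, between −0.95 and −0.78. In contrast to the CA3 genes, hyperoxia library 2 was the lowest and not the highest of its group.

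Cacng5 (ENSMUSG00000040373.12, chromosome 11, 107874605 to 107915055, minus strand) encodes TARP gamma-5, an auxiliary subunit that alters the gating of AMPA receptors. Its promoter window is shown because it was the member called higher. The window (RefSeq, GRCm38.p6) runs from 250 bases before to 50 after an annotated start and was searched on both strands for the GC box GGGCGG, the TATA box TATAAA, the CCAAT box and the E-box CACGTG, which do not overlap in it. The capitals mark the GC box, read here on the opposite strand and present 2 times, starting 35 and 24 bases before the start. A CCAAT box, also on the opposite strand and left in lower case, starts 51 bases before it, and the TATA box and E-box letters were not found. A second RefSeq window of Cacng5 held none of the 4 motifs. Of 32851 windows of the same length 35.7% held a GC box and 37.4% a CCAAT box, so both matches are common, and a match is not a site of binding.
Cacng5 promoter, chr11:107915006-107915305, minus strand: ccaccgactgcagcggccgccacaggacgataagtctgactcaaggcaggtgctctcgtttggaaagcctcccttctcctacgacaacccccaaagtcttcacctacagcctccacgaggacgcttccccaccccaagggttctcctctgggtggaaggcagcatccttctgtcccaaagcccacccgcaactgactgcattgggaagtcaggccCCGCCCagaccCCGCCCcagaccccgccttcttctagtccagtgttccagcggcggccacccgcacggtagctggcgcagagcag

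The normalized counts of Cacng5 were 638, 672 and 576 in air and 732, 761 and 850.3 in hyperoxia. All hyperoxia libraries were above all air libraries, with hyperoxia library 2 in the middle of its group. The means were 628 ± 48.5 in air and 781 ± 61.7 in hyperoxia (SD, n = 3 each), a log2 fold change of 0.31 (SE 0.09, 95% interval 0.10 to 0.53; limma, adjusted p = 0.0331). The call was met in 10 of 16 alternatives. Leaving out air library 1 (adjusted p = 0.0907), air library 2 (0.0583), air library 3 (0.128), hyperoxia library 1 (0.0518) or hyperoxia library 3 (0.0868) ended it, all with limma, as did limma without the trend (adjusted p = 0.0667). Without hyperoxia library 2 the log2 fold change was 0.33 (limma, adjusted p = 0.0179).

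Necab2 (ENSMUSG00000031837.14, chromosome 8, 119446719 to 119472640, plus strand) encodes a neuronal calcium-binding protein that interacts with adenosine and metabotropic glutamate receptors. It had 2714, 2960.2 and 2992 normalized counts in air and 2631, 3703 and 2384 in hyperoxia. Hyperoxia library 2 was the highest of the 6 libraries and the other hyperoxia libraries were the lowest of the 6. Its log2 fold change was −0.016 (SE 0.14, 95% interval −0.33 to 0.30; limma, adjusted p = 0.939). Without hyperoxia library 2 Necab2 was called lower (−0.20, limma, adjusted p = 0.0368), and its sign was positive in 7 of 16 alternatives.

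Amigo2 (ENSMUSG00000048218.5, chromosome 15, 97244125 to 97247287, minus strand) encodes a leucine-rich repeat adhesion protein of the neuronal surface. It had 683, 687 and 729 normalized counts in air and 597, 739 and 738 in hyperoxia. Hyperoxia library 1 was the lowest of the 6 and the other hyperoxia libraries were slightly above all air libraries. Its log2 fold change was −0.023 (SE 0.10, 95% interval −0.25 to 0.20; limma, adjusted p = 0.881), and no alternative called it.

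Pcp4 (ENSMUSG00000090223.1, chromosome 16, 96467606 to 96525793, plus strand) encodes a small calmodulin-binding protein and is one of the usual stains for CA2. The files gave it only 72 to 116 reads per library, a level per length at the 42.9th percentile of the genes tested. In the annotation used here (GENCODE M21), 243 of its 1026 exon bases (23.7%) are shared on the same strand. They are shared with a read-through transcript assigned to a second Igsf5 gene that is not a row of the table. Of the coding sequence of its main transcript (189 bases in 3 exons, chr16:96467782-96525517, plus strand), 180 bases lie in exons of that gene (95.2%). Most of the exon bases of Pcp4, which lie outside the coding sequence, are not shared. The coding sequence is shown with the shared bases in capitals, since reads from them could not be given to 1 gene by a counter that drops ambiguous reads. The annotation used for counting is not stated and may not hold this overlap. Whether such reads were dropped was not tested, and the level of Pcp4 is therefore uncertain.
Pcp4 coding sequence: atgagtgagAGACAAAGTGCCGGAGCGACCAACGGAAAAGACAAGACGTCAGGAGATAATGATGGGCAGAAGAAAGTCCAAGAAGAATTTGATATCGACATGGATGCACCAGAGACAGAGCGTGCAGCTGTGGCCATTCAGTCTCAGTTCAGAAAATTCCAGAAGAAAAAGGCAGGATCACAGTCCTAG

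Pcp4 had 92.3, 80.4 and 73.9 normalized counts in air and 79.6, 81.5 and 112 in hyperoxia. Only hyperoxia library 3 was above the air range. The log2 fold change was 0.13 (SE 0.18, 95% interval −0.27 to 0.54; limma, adjusted p = 0.605).

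Map3k15 (ENSMUSG00000031303.8, chromosome X, 159988433 to 160123351, plus strand) encodes the stress-activated kinase ASK3. It had 77.2, 59.0 and 48.3 normalized counts in air and 66.3, 48.7 and 81.1 in hyperoxia, with the groups mixed. Its log2 fold change was 0.082 (SE 0.24, 95% interval −0.46 to 0.62; limma, adjusted p = 0.819), the widest interval of the 9 members. Of its exon bases, 13.9% overlap those of Pdha1 on the opposite strand, which had 4917 to 6745 normalized counts, and the sources used here do not say whether counting used the strand.

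**Figure D2:**
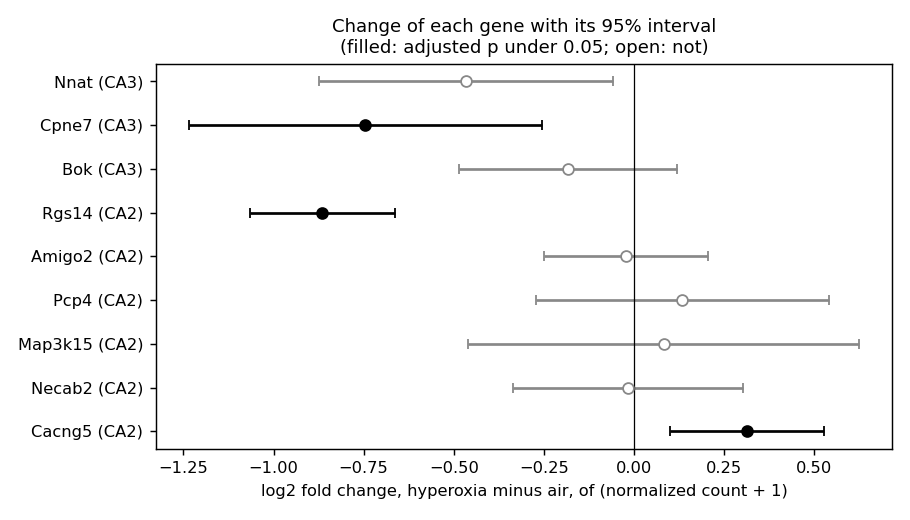
Log2 fold change (hyperoxia minus air, of the normalized count plus 1) of each member with its 95% interval from limma; filled points passed an adjusted p of 0.05. Rgs14 (−0.86) and Cpne7 (−0.75) lie left of 0, Cacng5 (0.31) lies right of 0, and the interval of Nnat ends at −0.06 although its adjusted p was 0.0797.

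**Figure D3:**
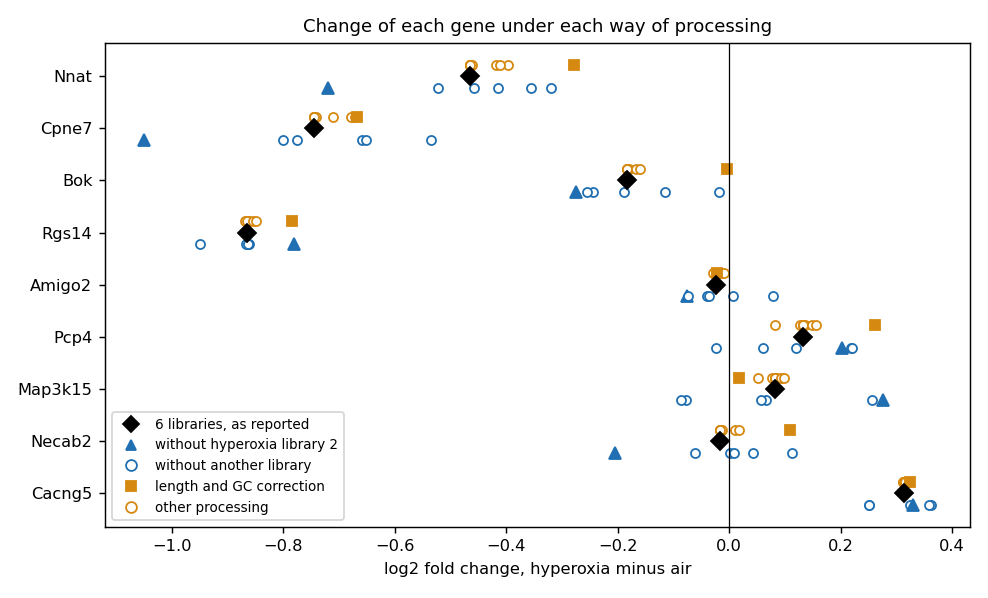
Log2 fold change of each member as reported (black diamonds) and in the 16 alternatives, 10 other settings (orange, the length and GC correction as squares) and 6 left-out libraries (blue, hyperoxia library 2 as triangles). Rgs14 stayed between −0.95 and −0.78, whereas Cpne7 ran from −1.05 without hyperoxia library 2 to −0.53.

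Levels were compared between genes as RPKM, reads per kilobase of exon scaled to the reads on genes of each library. In air, the order was Nnat (291 ± 19.8), Cpne7 (45.8 ± 5.14), Necab2 (38.2 ± 2.33), Bok (22.6 ± 2.06), Rgs14 (17.5 ± 0.170), Amigo2 (6.12 ± 0.262), Cacng5 (4.54 ± 0.344), Pcp4 (2.22 ± 0.232) and Map3k15 (0.391 ± 0.0896), as mean ± SD over 3 libraries. No neighbours in this order overlapped between libraries. In hyperoxia, Nnat (231 ± 72.6) was followed by Necab2 (40.8 ± 9.35), Cpne7 (30.3 ± 11.6), Bok (21.3 ± 3.83), Rgs14 (10.3 ± 1.28), Amigo2 (6.44 ± 0.718), Cacng5 (6.00 ± 0.485), Pcp4 (2.61 ± 0.531) and Map3k15 (0.443 ± 0.113). Here Cpne7 overlapped both Necab2 and Bok, and Amigo2 overlapped Cacng5, so the exchange of Cpne7 and Necab2 in the order was within the spread between libraries.

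**Figure D4:**
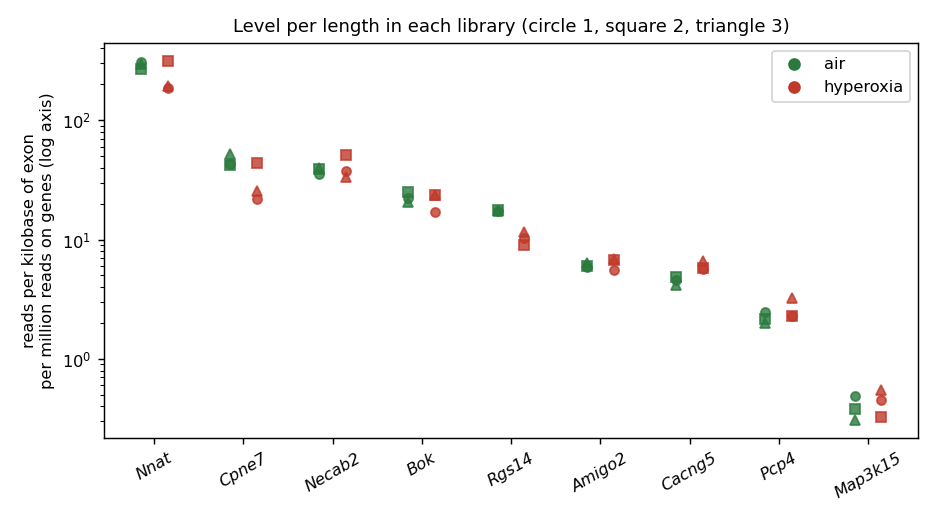
Level of each member in RPKM (reads per kilobase of exon, scaled to reads on genes, log axis) in each air and hyperoxia library. Nnat lies highest (185 to 315) and Map3k15 lowest (0.309 to 0.551), and Rgs14 parts into an air group (17.3 to 17.6) and a hyperoxia group (8.96 to 11.5).

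Further genes of CA2 cells were then counted. Of 11, 0 were called higher and 3 lower, namely Ntf3, Avpr1b and Ccdc3, with a median log2 fold change of −0.19 over the list. Over all genes tested, 14.9% were called higher and 15.6% lower. Ntf3, the neurotrophin-3 gene, had 466, 404 and 397 normalized counts in air and 178, 220 and 236 in hyperoxia (log2 fold change −1.003, SE 0.13; limma, adjusted p = 0.00101), and it was called in all 16 alternatives. Avpr1b, the vasopressin receptor through which CA2 cells take part in social memory, had 21.7, 26.5 and 23.6 in air and 7.96, 3.40 and 12.5 in hyperoxia (−1.61, SE 0.43; limma, adjusted p = 0.0192), and these are few reads. Avpr1b did not pass without air library 1 (adjusted p = 0.0619), air library 2 (0.0790) or air library 3 (0.0597), all with limma. Ccdc3 had a log2 fold change of −0.57 (limma, adjusted p = 0.0414) and was called in 10 of 16 alternatives, not without air library 1 (adjusted p = 0.0882), air library 2 (0.0647), air library 3 (0.153) or hyperoxia library 1 (0.138). The call was also lost in limma without the trend (adjusted p = 0.0676) and with the length and GC correction (limma, adjusted p = 0.0634). Ccdc3 shares 69.1% of its exon bases with Gm26776 on the other strand, and the use of strand in counting is not stated.

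Of the CA2 genes that did not pass, Adora1, the adenosine A1 receptor, had 7151 to 7576 normalized counts in air and 6163 to 6778 in hyperoxia, with no overlap (log2 fold change −0.19, limma, adjusted p = 0.0575). Nr3c2, the mineralocorticoid receptor that helps to set CA2 identity, had a log2 fold change of −0.39 (limma, adjusted p = 0.0541), with hyperoxia library 3 inside the air range. Ptpn5, the phosphatase STEP, had −0.096 (limma, adjusted p = 0.473) and Acan, the aggrecan of perineuronal nets, had −0.39 (limma, adjusted p = 0.0711). Adora1 was called lower in 4 of 16 alternatives, Nr3c2 in 3, Acan in 2 and Ptpn5 in 0. The list had 1 gene called without each air library in turn, 2 without hyperoxia library 1, 4 without hyperoxia library 2 and 6 without hyperoxia library 3. The shares of all genes called in these settings were 17.1% to 20.6%, 19.0%, 43.6% and 28.0%.

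Of 9 further CA3 genes, 2 were called higher and 3 lower, with a median log2 fold change of 0.091. Over all genes tested, 14.9% were called higher and 15.6% lower. Coch, which encodes the secreted protein cochlin, had 236, 285 and 203 normalized counts in air and 522, 528 and 385 in hyperoxia (0.98, SE 0.16; limma, adjusted p = 0.00234), and Socs2, a suppressor of cytokine signalling, had 568 to 623 and 792 to 948 (0.56, SE 0.09; limma, adjusted p = 0.00257). Iyd, an iodotyrosine deiodinase, fell from 372 to 502 in air to 171 to 302 in hyperoxia (−0.99, SE 0.20; limma, adjusted p = 0.00587). These 3 were called in all 16 alternatives. Grik4, a kainate receptor subunit, fell by 0.35 on the log2 scale (limma, adjusted p = 0.0300). Il16 had −0.49 (limma, adjusted p = 0.0448), was called in 8 of 16 alternatives and shares 15.3% of its exon bases with Stard5 on the other strand. Grik4 was not called without air library 1 (adjusted p = 0.112), air library 2 (0.107), air library 3 (0.0597) or hyperoxia library 1 (0.0879). Il16 was called when hyperoxia library 3 was left out, and not when any other library was (adjusted p up to 0.148). The list had 3 genes called when any air library or hyperoxia library 1 was left out. It had 7 when hyperoxia library 2 was left out and 6 when hyperoxia library 3 was. The shares of all genes called were 17.1% to 20.6%, 43.6% and 28.0%.

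**Figure D5:**
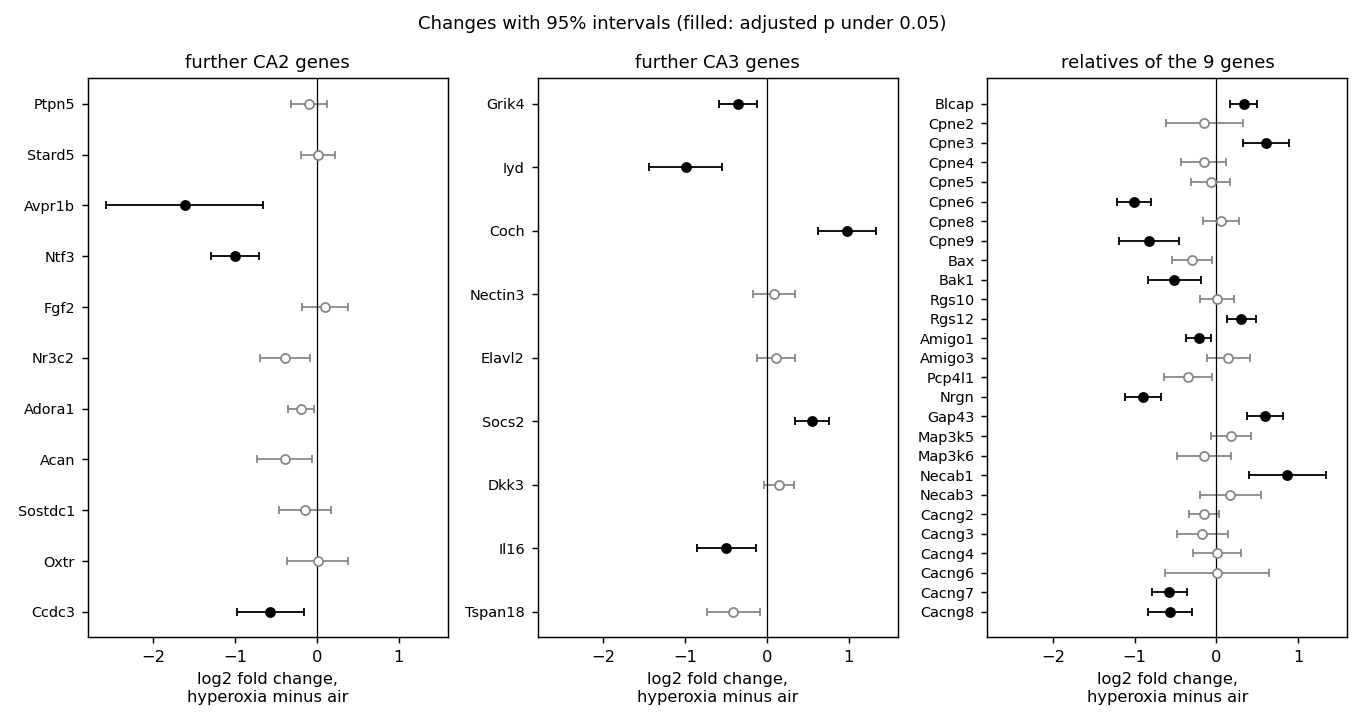
Log2 fold change with 95% interval (limma, of the normalized count plus 1) of the 11 further CA2 genes, the 9 further CA3 genes and the 27 tested relatives of the members, in 1 panel each; filled points passed an adjusted p of 0.05. Among further CA2 genes the 3 called genes lie left of 0, whereas further CA3 genes were called on both sides, from Iyd (−0.99) to Coch (0.98), and relatives from Cpne6 (−1.01) to Necab1 (0.86).

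Relatives of the members were taken by family or locus. Of 29 listed, 27 were tested (Cpne1 and Cacng1 were below the filter), and 5 were called higher and 7 lower, with a median log2 fold change of −0.15. Over all genes tested, 14.9% were called higher and 15.6% lower. Cpne1 shares 83.3% of its exon bases on the same strand with Gm28036, which is not a row of the table, so its low value is uncertain. Among copines, Cpne6 fell from 24757.7 ± 657 to 12322 ± 1471 normalized counts (SD, n = 3 each; −1.01, limma, adjusted p = 0.000311) and Cpne9 fell by 0.83 on the log2 scale (limma, adjusted p = 0.00556), whereas Cpne3 rose by 0.61 (limma, adjusted p = 0.00673). Cpne4 had −0.15 (limma, adjusted p = 0.369), and Cpne2 had its highest value in hyperoxia library 2 (2633, with 1322 and 1513 in the other hyperoxia libraries), above all air libraries (1859 to 2070.0).

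Of the 6 tested Cacng genes related to Cacng5, 0 were called higher and 2 lower, beside 14.9% and 15.6% of all genes tested. Cacng7 had 7622 to 9059 normalized counts in air and 5016 to 6056 in hyperoxia (−0.57, limma, adjusted p = 0.00239), and Cacng8, the main TARP of hippocampal pyramidal cells, had 4465 to 4951 and 2638 to 3814 (−0.57, limma, adjusted p = 0.00786). Both were called lower in all 16 alternatives, and Cacng2, stargazin, had −0.15 (limma, adjusted p = 0.196). Of the relatives of Rgs14, Rgs12 rose by 0.30 (limma, adjusted p = 0.0160) and Rgs10 had 0.0028 (limma, adjusted p = 0.984). Among calmodulin-binding relatives of Pcp4, Nrgn, neurogranin, had a log2 fold change of −0.89 (limma, adjusted p = 0.000543) and Gap43, of growing axons, had 0.59 (limma, adjusted p = 0.00271). Necab1 rose by 0.86 (limma, adjusted p = 0.0130), with hyperoxia library 1 (3726) far above hyperoxia libraries 2 and 3 (2079 and 1896), and it did not pass without air library 2 (adjusted p = 0.0558). Bak1, a death effector like Bok, fell by 0.52 (limma, adjusted p = 0.0232), and Amigo1 fell by 0.22 (limma, adjusted p = 0.0339). Bak1 did not pass without air library 1 (adjusted p = 0.107), air library 2 (0.0640), hyperoxia library 1 (0.0871) or hyperoxia library 3 (0.0520). Amigo1 passed with hyperoxia library 2 left out but not with any other (adjusted p up to 0.121), and Rgs12 failed with any air library or hyperoxia library 1 left out (adjusted p up to 0.0753). Of the relatives, 8 were called with air library 1 or 2 left out and 10 with air library 3 left out. With hyperoxia library 1, 2 or 3 left out, 9, 16 and 12 were called. The shares of all genes called were 17.1%, 17.4%, 20.6%, 19.0%, 43.6% and 28.0%.

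For each member, the gene whose log2 values ran most alike over the 6 libraries was noted as a description. Likeness was Pearson's r over 6 libraries in 2 groups, which share a group difference with one another. It was Ctdsp1 for Nnat (r = 0.998), Slc41a1 for Cpne7 (0.997), Fabp5 for Bok (0.988), Cap2 for Rgs14 (0.9996), Gm17435 for Amigo2 (0.982), Sema6c for Pcp4 (0.983), Prc1 for Map3k15 (0.996), Rtl1 for Necab2 (0.997) and Snx7 for Cacng5 (0.993). The next were Entpd6, Enkd1, Gm21846, Plekhg5, Ndufa2, Fam24a, Thap1, Prkcdbp and Txn1. Over an r of 0.95 there were 804 genes for Rgs14, 188 for Nnat and 170 for Cpne7, but 9 for Amigo2 and 12 for Map3k15.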

How the data were processed

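Left hippocampal RNA of 6 mice (3 air, 3 hyperoxia) was sequenced as strand-specific polyA libraries on a NextSeq. The submitters' processing notes name FastQC, STAR 2.5.3a, HTSeq and DESeq2. The build, the annotation and the use of strand in counting are not stated there or in the methods. The deposited signal is a normalized count per gene, made by the authors by dividing read counts by 1 size factor per library. A second deposited table holds the authors' own comparison (fold changes, standard errors, Wald statistics and p-values) and was not used.

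Whole reads were recovered (100% of values within 0.01 of a whole number). Genes averaging 10 or more (17778) were tested with limma 3.58.1 (R 4.3.3, mean-variance trend) on log2(normalized count + 1), hyperoxia minus air, with Benjamini-Hochberg adjustment over all of them and a threshold of 0.05. Fold changes on this scale understate the change of low genes. Single values could not reach p below 0.1 in an exact permutation test of 3 against 3, so none is given. The code was tested on simulated data. Libraries of a group differed by more than sampling noise. Each limma p-value sets the group difference against a spread estimated from these mice and moderated over all genes tested. The study's methods do not give the litter of each mouse.

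The 16 alternatives comprised each library left out, pseudocounts of 0.5 or 5, testing every gene, a minimum mean of 50, quantile and TMM scaling, limma without the trend, edgeR 4.0.16 and DESeq2 1.42.0 on recovered reads, removal of each library's trend on length and GC content (mgcv 1.9.3). Positions and lengths are from GENCODE M21 (GRCm38), in which 99.68% of gene identifiers were found. RefSeq promoter windows were found for 6 of 9 members and not for Cpne7, Rgs14 and Map3k15. The members, gene lists and the rule for named genes (all members, the called and most abundant listed genes, and 2 most alike genes per member) were chosen with earlier results of these data known.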

Additional observations from a re-analysis of the deposited data

How the results depend on the processing

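No paired analysis was possible because the labels number different animals in each group and the column numbers are not tied to animals. The following settings kept all libraries. Limma without the trend called 1 member, 0 CA3 members, 1 CA2 member, 2 further CA2 and 3 further CA3 genes. It called 23.8% of all genes tested, beside 30.5% in the main analysis. In the same fit Cpne7 had −0.75 (limma, adjusted p = 0.0938) and Cacng5 had 0.31 (limma, adjusted p = 0.0667). DESeq2 called 2 members and 0 CA3 members beside 31.6% of all genes tested, with Cpne7 at −0.67 (adjusted p = 0.124). The length and GC correction called 5 further CA2 genes beside 34.7% of all genes tested. It moved Nnat to −0.28, Bok to −0.0046, Pcp4 to 0.26 and Map3k15 to 0.018, each by over 1.5 times and with no change of call. Necab2 turned positive with edgeR (0.0109), DESeq2 (0.0177) and the length and GC correction (0.11), with adjusted p up to 0.961. The causes were not tested.

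With each library left out in turn, 3048 to 7756 genes were called (17.1% to 43.6% of all genes tested). Among them were 1 to 5 members, 0 to 2 CA3 members and 1 to 3 CA2 members. They also held 1 to 6 further CA2 genes, 3 to 7 further CA3 genes and 8 to 16 relatives. The median of the members ran from −0.20 to 0.042. The log2 fold changes ran from −0.72 to −0.32 for Nnat, −1.05 to −0.53 for Cpne7, −0.27 to −0.017 for Bok, −0.95 to −0.78 for Rgs14, −0.075 to 0.079 for Amigo2, −0.023 to 0.22 for Pcp4, −0.086 to 0.28 for Map3k15, −0.20 to 0.11 for Necab2 and 0.25 to 0.36 for Cacng5. Among further genes and relatives that turned sign they ran from −0.027 to 0.068 for Stard5, −0.20 to 0.17 for Oxtr, −0.033 to 0.22 for Nectin3, −0.45 to 0.048 for Cpne2, −0.14 to 0.042 for Cpne5, −0.010 to 0.16 for Cpne8, −0.069 to 0.046 for Rgs10, −0.16 to 0.10 for Cacng4 and −0.17 to 0.29 for Cacng6, and none of these values with a turned sign passed the threshold. A left-out library leaves 2 mice in its group, whose spread is then estimated with fewer samples.

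Other settings turned the sign of Stard5 (−0.0090) and Oxtr (−0.0066) with quantile scaling, and of Oxtr (−0.029), Fgf2 (−0.13), Nectin3 (−0.19), Elavl2 (−0.072) and Cpne8 (−0.019) with the length and GC correction. Low depth limits Map3k15 and Pcp4 among the members, and Avpr1b and Cacng6 among the other listed genes.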
